A study of Mus musculus with 9 samples.

Results

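Smooth muscle cells and pericytes are the contractile and supporting cells of the vessel wall, and 10 genes that mark them were followed through 3 layers of the mouse eye: Acta2, Tagln, Cnn1, Myh11, Mylk, Des, Rgs5, Pdgfrb, Cspg4 and Notch3. Their probes were taken by name: a spot that is not a control and whose gene name in the array files equals a listed symbol, in any case. All 10 genes were found, among 31829 gene names on the array, and each had 1 probe. Gene expression was measured in the choroid (CH), the retinal pigment epithelium (RPE) and the photoreceptors (PR), in 3 samples each, with 9 two-colour Agilent microarrays. All samples were laser dissected from eyes of healthy female C57BL/6 mice (of the J strain, substrain C57BL/6JOlaHsd, by the study's methods), 1 eye per sample, aged 6 months with a range of 2 weeks according to the labels (the study's methods give a lower age). The methods count some carry-over between adjacent layers as unavoidable, and the RPE was removed before the choroid was dissected. Handling differed between layers: PR came from thicker sections than RPE and CH, and a stain was used to find the photoreceptors. The ranges of RNA integrity given for the 3 tissues overlap. Effects of handling and RNA integrity on the values were not tested. Tissue RNA carried Cy5 on every array, and the Cy3 channel held the same reference throughout, prepared from RPE and choroid together, so there were no dye swaps. A value of 0 on the log2 ratio scale used below is nominally the level of that gene in the reference. Without dye swaps, a dye bias of a probe stays in its ratio, so 0 need not be the reference level itself. Both layers of interest contribute to the reference, so the ratio places the tissues against each other and gives no absolute amount.

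The choroid is the vascular bed behind the retina. Its larger vessels have walls of smooth muscle, which contracts when a kinase phosphorylates the regulatory light chain of myosin and myosin then pulls on actin filaments. Its capillaries, the choriocapillaris, lie directly under the RPE and carry pericytes, which are recruited by platelet-derived growth factor from the endothelium and are kept in place partly by Notch signalling. The RPE and the photoreceptor layer hold no vessels of their own.

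The layers could be told apart by their marker genes. All 6 rod genes examined were called higher in PR than in both other tissues, and 5 of 6 RPE genes (all but Best1) were called higher in RPE than in both. The count of 5 against CH was 3 without CH replicate 1 or RPE replicate 1, 2 without CH replicate 2 or RPE replicate 2 and 0 with median centring of the arrays. RPE genes were not absent from CH: their mean log2 ratio reached 0.33 to 1.05 there, compared with 1.78 to 2.23 in RPE and −2.71 to −2.61 in PR. Array by array, the median Cy5 signal ranged from 617 to 1534, and 63.1% to 91.8% of the spots were well above background, the most on RPE replicate 2. Among the RPE and rod markers, Rpe65, Rdh5 and Ttr were saturated in RPE (Ttr also in CH) and Gnat1 and Sag in PR. This limits their ratios there. No spot of the 10 genes was saturated. All of them were well above background in Cy5 on all 9 arrays, apart from Des in PR. The differences were tested with limma over all 39429 probes. A gene was called when its fold change (FC) was above 2.5 and its Benjamini-Hochberg (B-H) adjusted p-value below 0.01. The p-values rest on the spread between samples of a tissue, pooled over the 3 tissues and moderated by limma over all probes. A comparison therefore also carries the spread of the tissue that is not compared. By the methods, each sample took 1 whole eye. The sources do not say whether samples with the same replicate number came from the same mouse.

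Compared with PR, 9 of the 10 genes were called higher in CH and 8 were called higher in RPE. Of all probes on the array, 12% were called higher in CH than PR and 10.3% higher in RPE than PR. In CH against RPE all 10 differences had the same sign, higher in CH, but only Tagln (FC 3.78) and Cnn1 (FC 3.35) were called, where 1.55% of all probes were called in that direction. At an adjusted p-value below 0.05 with no fold change threshold, 6 of 10 were higher in CH (Acta2, Tagln, Cnn1, Mylk, Des and Pdgfrb), against 11.3% of all probes. Mylk was the nearest to this limit (adjusted p-value 0.0463, between 0.0105 and 0.18 over the alternatives). It missed the limit when CH replicate 1 or 2, any RPE replicate, or PR replicate 1 or 3 was left out. The median log2 difference RPE minus CH was −0.75 over the 10 genes and 0.04 over all probes. For RPE minus PR it was 2.54 and −0.01, and for CH minus PR 3.86 and −0.05. The 3 comparisons share arrays and are not independent of each other. Endothelial genes, which mark the vessels themselves, had mean log2 ratios of 1.44 to 1.62 on the RPE arrays and 1.27 to 1.83 on the CH arrays, and the part of vessel cells carried over from CH in the RPE values was not tested. In a dissected layer, fewer cells of a type and less RNA per cell cannot be told apart.

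**Figure D1:**
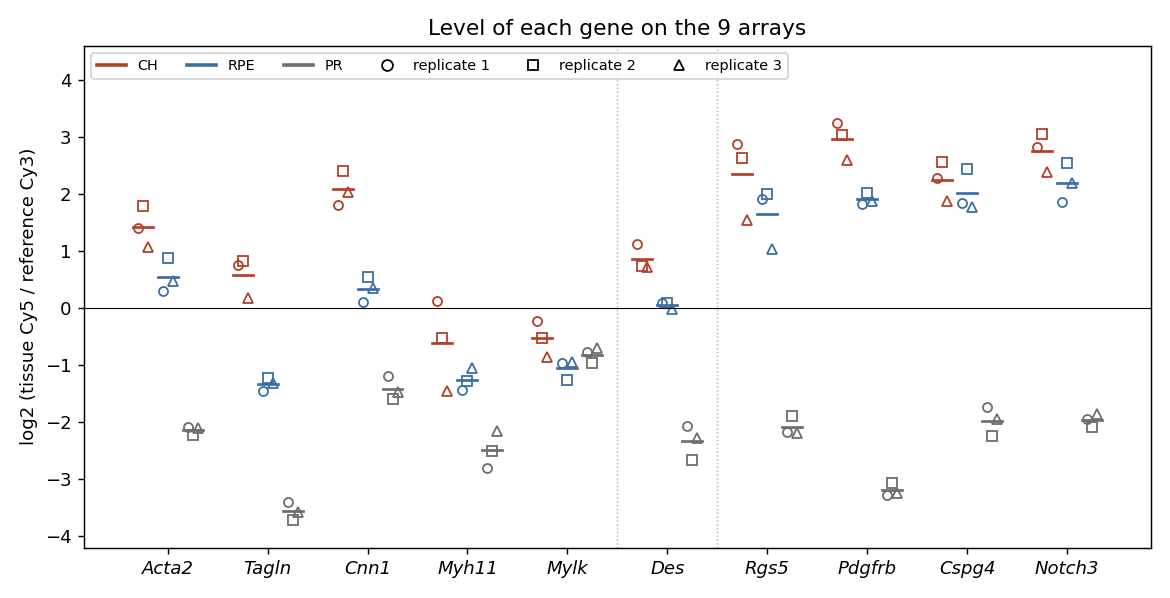
Log2 ratio of tissue Cy5 to reference Cy3 (vertical axis) for the 10 genes (horizontal axis) on each of the 9 arrays. Colours mark CH, RPE and PR, symbols mark the replicate, and the horizontal bar is the mean of 3 arrays. PR lies below both other tissues on every array for 9 genes, the exception being Mylk, and Tagln and Cnn1 show the widest gap between CH and RPE.

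The 2 genes called between CH and RPE, Tagln and Cnn1, both belong to the contractile group. Tagln encodes transgelin (SM22), an actin-binding protein of smooth muscle. Its log2 ratio was 0.76, 0.82 and 0.18 on CH replicates 1, 2 and 3, −1.46, −1.22 and −1.31 on the RPE replicates and −3.40, −3.71 and −3.58 on the PR replicates. The 3 tissues did not overlap, and the log2 ratio was positive on the CH arrays and negative on the RPE arrays. The log2 difference RPE minus CH was −1.92 ± 0.17 (SE, adjusted p-value 0.000148), and RPE minus PR was 2.23 ± 0.17 (FC 4.71, adjusted p-value 2.51e-06). CH was 17.8-fold above PR.

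Cnn1 encodes calponin 1, which binds actin and slows the myosin ATPase in smooth muscle. Its log2 ratio was 1.81, 2.40 and 2.04 in CH, 0.10, 0.55 and 0.36 in RPE, and −1.18, −1.59 and −1.47 in PR. Again no array of one tissue reached into another. RPE minus CH was −1.74 ± 0.18 on the log2 scale (adjusted p-value 0.00026), RPE minus PR 1.75 ± 0.18 (FC 3.36) and CH minus PR 3.49 ± 0.18 (FC 11.3). The RPE mean stood almost exactly midway between the other two, at 50.1% of the log2 distance from PR to CH.

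Acta2 encodes smooth muscle alpha-actin, the thin filament protein most used to stain vessel walls, which activated fibroblasts also make. Its probe is printed as 10 spots on every array, whose log2 ratios had an SD between 0.02 and 0.09 per array. The averaged log2 ratio was 1.41, 1.79 and 1.07 in CH, 0.31, 0.87 and 0.48 in RPE, and −2.09, −2.23 and −2.09 in PR. CH arrays lay above all RPE arrays, by a smaller step than for Tagln and Cnn1: RPE minus CH was −0.87 ± 0.19 (FC 1.83 toward CH, adjusted p-value 0.0101), short of both limits of a call. Against PR, Acta2 was 6.46-fold higher in RPE and 11.8-fold higher in CH, with adjusted p-values of 1.62e-06 and 1.84e-07.

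The promoters of contractile genes are known for the CArG box, the site of serum response factor, which is 2 C, then 6 bases that are each A or T, then 2 G. The RefSeq windows of 250 bases before to 50 bases after a gene's start (assembly GRCm38.p6) were available for 7 of the 10 genes, Acta2, Cnn1, Mylk, Des, Rgs5, Cspg4 and Notch3, and were searched on both strands, the pattern being its own reverse complement. None of the 7 held an exact box, which 1.63% of all 32851 windows did. Allowing 1 of the 6 middle bases to be G or C, 1 of the 7 windows matched, that of Acta2, against 9.98% of all windows. Of 23 windows of the contractile list described below, 2 held an exact box (Myl9 and Vcl) and 3 an exact or near one (also Synm). The 2 near matches of Acta2 are shown with 10 bases on each side, the matched bases in capitals, and beside them those of Myl9, which of these 3 list genes was the one called between CH and RPE. A match describes letters only.
Acta2, minus strand, chr19:34255438-34255467, match at −84 to −75 from the start: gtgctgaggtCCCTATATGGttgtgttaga
Acta2, minus strand, chr19:34255388-34255417, match at −34 to −25 from the start: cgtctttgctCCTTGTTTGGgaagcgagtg
Myl9, plus strand, chr2:156775293-156775322, exact match at −161 to −152 from the start: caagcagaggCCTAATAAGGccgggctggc
Myl9, plus strand, chr2:156775355-156775384, near match at −99 to −90 from the start: cattcttctgCCTTGTAAGGccgggcggcc

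Myh11 encodes the smooth muscle myosin heavy chain, the motor of the contractile apparatus and the gene most restricted to this cell type. Its CH values were the most spread of the 10 genes: 0.13, −0.52 and −1.45 on replicates 1, 2 and 3 (mean −0.61 ± 0.79, SD, n = 3). The RPE arrays gave −1.44, −1.27 and −1.05 and the PR arrays −2.80, −2.51 and −2.16. CH replicate 3 lay at the level of the RPE arrays, so CH and RPE overlapped, and the difference RPE minus CH was −0.64 ± 0.34 (adjusted p-value 0.223, 95% interval −1.40 to 0.12). Without CH replicate 3 it was −1.06 (adjusted p-value 0.012), and without CH replicate 1 it was −0.27. All RPE arrays lay above all PR arrays, yet RPE minus PR (1.24 ± 0.34, FC 2.36, adjusted p-value 0.0116) was not called. CH minus PR was called at FC 3.68 (adjusted p-value 0.000899).

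Mylk encodes myosin light chain kinase, which starts contraction and is also made in non-muscle cells. It was the exception of the 10. The log2 ratio was −0.22, −0.52 and −0.85 in CH, −0.96, −1.27 and −0.93 in RPE, and −0.77, −0.96 and −0.71 in PR. It was negative on all 9 arrays. The means ran in the order CH, PR, RPE, and PR overlapped both neighbours. RPE minus CH was −0.52 ± 0.16 (adjusted p-value 0.0463), RPE minus PR −0.24 ± 0.16 (adjusted p-value 0.257) and CH minus PR 0.28 ± 0.16 (adjusted p-value 0.181). The probe lies on chromosome 16 at 35001266 to 35001325 of mm9, plus strand, and which of the gene's forms it reads was not examined.

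Des encodes desmin, the intermediate filament that ties the contractile apparatus together in all muscle and is also used to label pericytes. Its probe also has 10 spots per array, and its 60 bases cover 226 bases of the mm9 genome (chromosome 1, 75363404 to 75363629), so it crosses an intron. The log2 ratio was 1.12, 0.74 and 0.73 in CH, 0.10, 0.09 and −0.01 in RPE, and −2.07, −2.66 and −2.27 in PR. The RPE arrays had a narrow spread (SD 0.06) and lay below all CH arrays. RPE minus CH was −0.80 ± 0.16 (adjusted p-value 0.00648), past the p threshold and under the fold threshold (FC 1.74). On the PR arrays, 3, 2 and 2 of the 10 spots were well above background, so Des has a lower bound there: at least 4.98-fold higher in RPE than PR (adjusted p-value 1.1e-06) and at least 8.85-fold higher in CH than PR (adjusted p-value 1.18e-07). These bounds use the Cy5 channel alone after loess and Aquantile normalization and are open to dye bias. Since Des is also a skeletal muscle gene, a list of 12 skeletal muscle genes was examined beside it. By limma, 0 of 12 were called between CH and RPE in either direction. At an unadjusted limma p-value below 0.05, 1 was lower and 1 higher in RPE at the brightest probe. Against PR, 1 of 12 (Acta1) was called higher in RPE (FC 3.06) and in CH (FC 3.89), where 10.3% and 12% of all probes were called. In each comparison with PR, 10 of the 12 were above PR at the brightest probe. The mean log2 ratio of the list was between −2.13 and −1.96 in CH, between −2.52 and −1.80 in RPE and between −2.60 and −2.53 in PR.

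**Figure D2:**
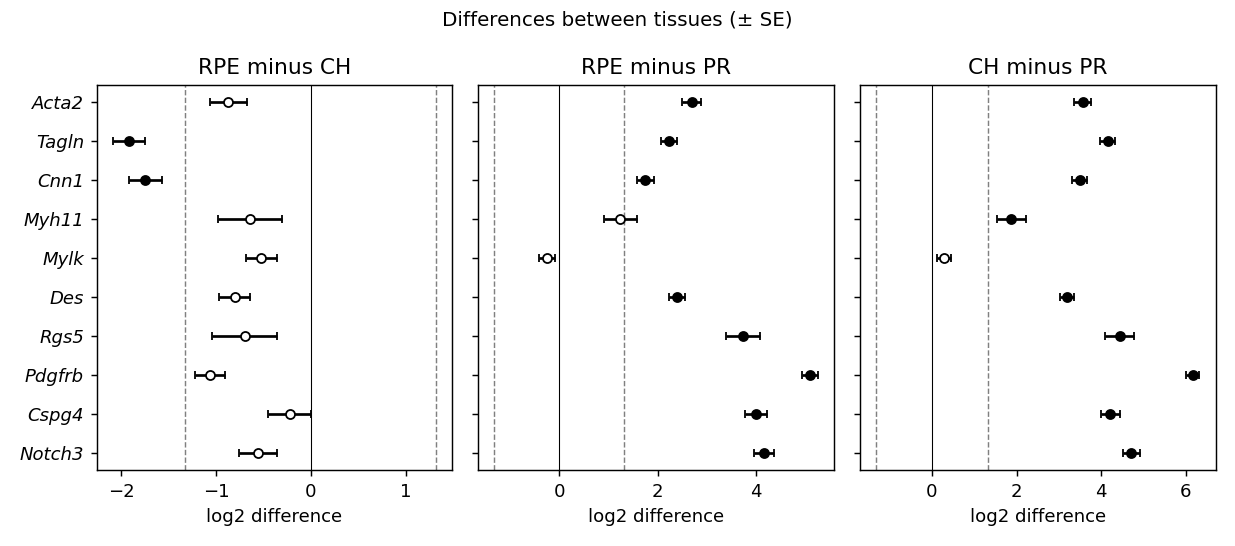
Log2 difference between tissues for each gene (horizontal axis), one panel per comparison, with the standard error of the limma fit as bars. Filled points passed FC 2.5 and adjusted p-value 0.01, open points did not, and dashed lines mark FC 2.5. Tagln and Cnn1 are the filled points of RPE minus CH, and Mylk is open in all 3 panels.

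The 4 pericyte genes were far above PR in both other tissues, and none was called between CH and RPE. Pdgfrb encodes the receptor for platelet-derived growth factor B by which endothelium recruits pericytes, and fibroblasts make it too. Its log2 ratio was 3.26, 3.04 and 2.60 in CH, 1.83, 2.01 and 1.88 in RPE, and −3.28, −3.06 and −3.25 in PR. The 3 tissues were separate, and the distance to PR was the widest measured, Des apart, which has a bound there: FC 71.7 for CH over PR (log2 difference 6.16 ± 0.16, adjusted p-value 2.85e-09) and FC 34.4 for RPE over PR (adjusted p-value 1.11e-08). RPE minus CH was −1.06 ± 0.16 (adjusted p-value 0.00145), an FC of 2.09 toward CH that missed the fold threshold. With median centring in place of loess this difference was −1.38 and was called.

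Cspg4 encodes NG2, a proteoglycan on the pericyte surface that oligodendrocyte precursors also carry. CH gave 2.28, 2.57 and 1.88, RPE 1.84, 2.45 and 1.78, and PR −1.74, −2.24 and −1.95 on the log2 ratio scale. The CH and RPE arrays were interleaved: RPE replicate 2 lay above CH replicates 1 and 3, which were on another slide. Among arrays of the same slide, CH lay above RPE. The difference RPE minus CH was the smallest of the 10, −0.22 ± 0.23 (adjusted p-value 0.55), with a 95% interval from −0.73 to 0.28, which corresponds to CH over RPE between 0.822-fold and 1.66-fold. Both were far above PR, RPE by 16.0-fold and CH by 18.6-fold (adjusted p-values 3.29e-07 and 1.74e-07).

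Notch3 encodes the Notch receptor of mural cells. Its log2 ratio was 2.82, 3.06 and 2.38 in CH, 1.86, 2.55 and 2.20 in RPE, and −1.94, −2.09 and −1.85 in PR. RPE replicate 2 lay above CH replicate 3, which was on another slide. Among arrays of the same slide CH lay above RPE. RPE minus CH was −0.56 ± 0.20 (adjusted p-value 0.0809, 95% interval −1.01 to −0.10 before adjustment). Over PR, the FC was 17.9 in RPE and 26.2 in CH.

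Rgs5, a regulator of G-protein signalling, is among the most used pericyte markers. It varied between replicates of CH and of RPE: 2.88, 2.64 and 1.54 in CH and 1.91, 2.01 and 1.05 in RPE, where replicate 3 was the lowest in each, and −2.17, −1.89 and −2.19 in PR. CH replicate 3 lay below RPE replicates 1 and 2, so CH and RPE overlapped. The difference RPE minus CH was −0.70 ± 0.35 (adjusted p-value 0.195, 95% interval −1.48 to 0.08). It was −1.10 without CH replicate 3 and −0.39 without RPE replicate 3. Rgs5 was 13.4-fold higher in RPE than PR and 21.7-fold higher in CH than PR (adjusted p-values 1.04e-05 and 2.49e-06).

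Counted by arrays, all 3 CH arrays lay above all 3 RPE arrays for 6 of the 10 genes (Acta2, Tagln, Cnn1, Mylk, Des and Pdgfrb), against 17.9% of all probes with values on those arrays. All RPE arrays lay above all PR arrays for 9 genes, against 28.8% of all probes, and all CH arrays above all PR arrays for 9, against 28%. Mylk was the gene that overlapped in both comparisons with PR. For 9 genes the order of the means was CH, RPE, PR.

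The position of RPE between PR and CH varied from gene to gene. As a share of the log2 distance from PR to CH, the RPE mean stood at 94.7% for Cspg4, 88.2% for Notch3, 84.3% for Rgs5 and 82.8% for Pdgfrb. It stood at 75.6% for Acta2, 65.9% for Myh11, 53.8% for Tagln and 50.1% for Cnn1. Des has no such share because its PR level is a bound, and for Mylk RPE lay below PR. The shares depend on the distance to PR: on the difference RPE minus CH itself, Pdgfrb (−1.06) lay beyond Acta2 (−0.87) and Myh11 (−0.64). No difference between genes was tested. Averaged over the 4 pericyte genes, the log2 ratio per array was between 2.10 and 2.83 in CH and between 1.73 and 2.25 in RPE, so the tissues overlapped. The overlap was that of CH replicate 3 with RPE replicate 2, which are on different slides. Averaged over the 5 contractile genes (Acta2, Tagln, Cnn1, Myh11 and Mylk), it was between 0.20 and 0.80 in CH and between −0.69 and −0.47 in RPE.

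**Figure D3:**
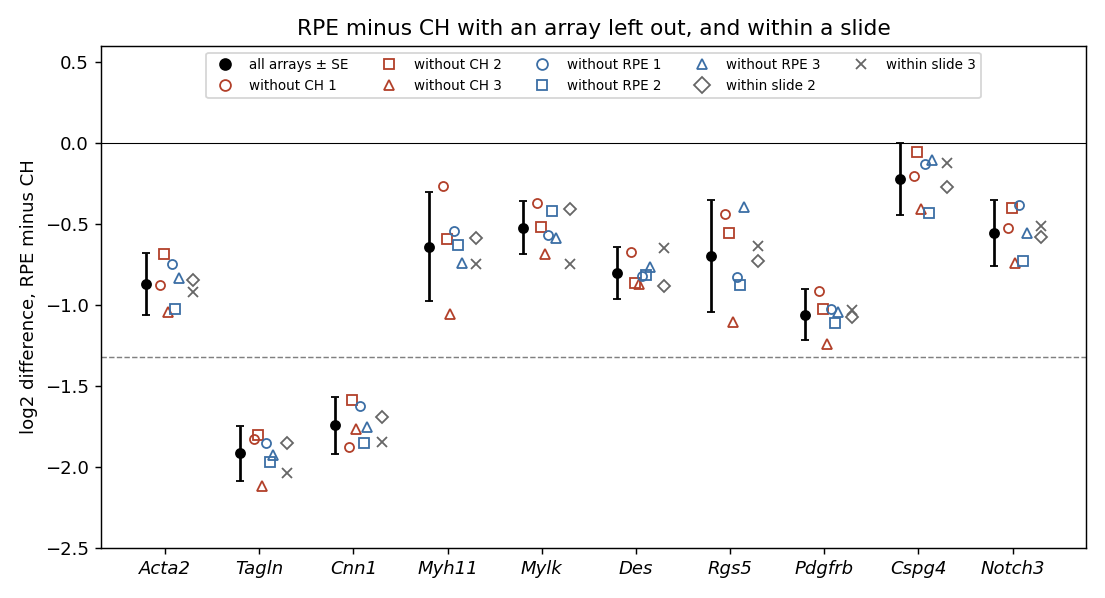
Log2 difference RPE minus CH (vertical axis) of the 10 genes with all arrays (black, ± SE), with each CH or RPE array left out (open symbols), and within slide 2 and slide 3 (grey). The dashed line is FC 2.5. Tagln and Cnn1 stay beyond the line throughout, the other 8 genes stay between it and 0, and Rgs5 and Myh11 move the most.

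CH replicate 3 was the lowest CH array for 9 of the 10 genes, the exception being Cnn1, for which it was replicate 1. It was also the CH array with the highest mean over the RPE marker list (1.05, against 0.47 and 0.33 on CH replicates 1 and 2) and the lowest over the endothelium list (1.27, against 1.83 and 1.57) and the fibroblast list (0.64, against 0.94 and 0.99). The part of RPE tissue in that sample's values was not tested. CH replicates 1 and 3 and RPE replicates 1 and 3 share a slide, and CH replicate 2, RPE replicate 2 and PR replicate 2 share another, by the file headers. PR replicates 1 and 3 carry a scanner slot in place of a slide mark and were taken as 1 slide, which is an assumption. Within the slide with 2 arrays of each tissue, RPE minus CH was −1.86 for Tagln and −1.69 for Cnn1. Within the slide with 1 array of each it was −2.04 and −1.85. All 10 differences had the same sign, higher in CH, within both slides. Only replicate 2 sets PR beside CH and RPE on the same slide. PR replicates 1 and 3 were also scanned on another date than every CH and RPE array. In the comparisons with PR, tissue therefore cannot be fully told apart from slide and scan. Within the shared slide, with 1 array of each tissue, RPE minus PR ran from 1.24 (Myh11) to 5.08 (Pdgfrb), apart from Mylk (−0.30). CH minus PR ran from 0.45 (Mylk) to 6.11 (Pdgfrb) there.

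Lists of other genes of the same systems were set beside the 10. A listed gene counted as called when any of its probes passed, while its values and the medians are those of its brightest probe. For all list counts below, the shares over all probes were 1.55% called higher in CH than RPE, 10.3% higher in RPE than PR and 12% higher in CH than PR. These shares are per probe, so a listed gene with several probes has more ways to be called. Smooth muscle contractile genes, 22 in number, all had a lower mean in RPE than CH at the brightest probe of each gene (21 without CH replicate 1, CH replicate 2 or RPE replicate 2, median log2 difference −0.82). Other probes of Tpm1 (up to 0.41), Synpo2, Synm, Cald1 and Vcl were above 0. Of the 22, 5 were called: Actg2, Pln, Itga8, Synpo2 and Myl9. Actg2, the smooth muscle gamma-actin, had a mean log2 ratio of 2.47 in CH and 0.48 in RPE (difference −1.98 ± 0.21, FC 3.96, adjusted p-value 0.000449). Pln, which encodes phospholamban, the inhibitor of the calcium pump of the sarcoplasmic reticulum, was 3.78-fold higher in CH than RPE (adjusted p-value 0.00759). Itga8, an integrin subunit of smooth muscle and other mesenchymal cells, was 3.75-fold higher (adjusted p-value 0.000166). Synpo2, an actin-bundling protein of the Z-disc, was 2.58-fold higher at its brightest probe, while its probes ranged from −1.37 to 0.19. The count of 5 fell to 2 without CH replicate 1, without CH replicate 2 or without RPE replicate 1, and was 8 with median centring. Against PR, 14 of 22 were called higher in RPE and 16 of 22 higher in CH. Cald1 (caldesmon) was 25.2-fold higher in RPE than PR, and Myl9, the regulatory light chain of smooth muscle myosin, was 7.55-fold higher.

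The machinery that sets light chain phosphorylation is used by most cells. Of 12 genes (among them light chains, kinases, myosin phosphatase subunits and calmodulins), 0 were called by limma between CH and RPE (median −0.10), 4 were called higher in RPE than PR and 5 higher in CH than PR, each count including 1 gene whose brightest probe did not pass. The first count, of genes higher in CH, was 1 with median centring and 1 without CH replicate 3. At an adjusted p-value below 0.05 with no fold change threshold, 2 of the 12 had a probe higher in CH than RPE and 3 a probe higher in RPE. At the brightest probe and an unadjusted p-value below 0.05, 3 were lower and 1 higher in RPE. Myl12a, a light chain of non-muscle and smooth muscle myosin, was 4.88-fold higher in RPE than PR and 5.75-fold higher in CH than PR.

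Among 15 further pericyte and mural genes, 2 were called higher in CH than RPE (median −0.47): Anpep, the surface peptidase CD13, at FC 3.84 (adjusted p-value 0.00046), and Art3 at FC 3.03 (adjusted p-value 0.00065). The count was 3 without CH replicate 3. Against PR, 11 were called higher in RPE and 13 higher in CH. Both counts include Mcam, whose brightest probe did not pass (RPE minus PR −0.32, CH minus PR −0.17), and the second also Rgs4. For Art3 the difference was 5.05 on the log2 scale (RPE minus PR). Enpep, aminopeptidase A, was at least 29.9-fold higher in RPE than PR, where it was not well above background. P2ry14, a purinergic receptor, was 16.9-fold higher. The reverse was seen for Vtn, which encodes vitronectin: its RPE minus PR was −3.46 on the log2 scale (adjusted p-value 3.08e-07).

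Transcription factors of mural cells, 14 in number, had a median RPE minus CH of −0.73, and Foxc1 was the 1 called (FC 2.77 toward CH, adjusted p-value 0.000806). The count of 1 was 3 without CH replicate 3. Against PR, 9 were called higher in RPE and 10 higher in CH. Foxf2, a forkhead factor of pericytes, was 39.2-fold higher in RPE and 87.4-fold higher in CH than PR. Heyl, a target of Notch3, had mean log2 ratios of 2.64, 2.16 and −1.92 in CH, RPE and PR (FC 16.9 for RPE over PR).

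Of 25 ligands and receptors that act between endothelium and mural cells, 3 were called higher in CH than RPE (median −0.43). They were Angpt1, the ligand that mural cells supply to endothelial Tie2 (FC 3.41, adjusted p-value 0.00065), Pdgfra, a receptor of fibroblasts (FC 2.87, adjusted p-value 0.000164), and Edn1, the vasoconstrictor endothelin 1 (FC 2.56, adjusted p-value 0.000663). Pdgfra is also on the fibroblast list below, where the same probe is counted as called again. The count of 3 was 2 without CH replicate 2 or RPE replicate 3. Against PR, 21 were called higher in RPE and 20 in CH, and Jag1, a Notch ligand, was called lower in both. Pdgfa was 36.0-fold higher in RPE than PR. Angpt1 was at least 49.9-fold higher in RPE and at least 168-fold higher in CH than PR, where it was not well above background. Its Tie2 receptor gene Tek had an RPE minus CH of 0.06 on the log2 scale.

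**Figure D4:**
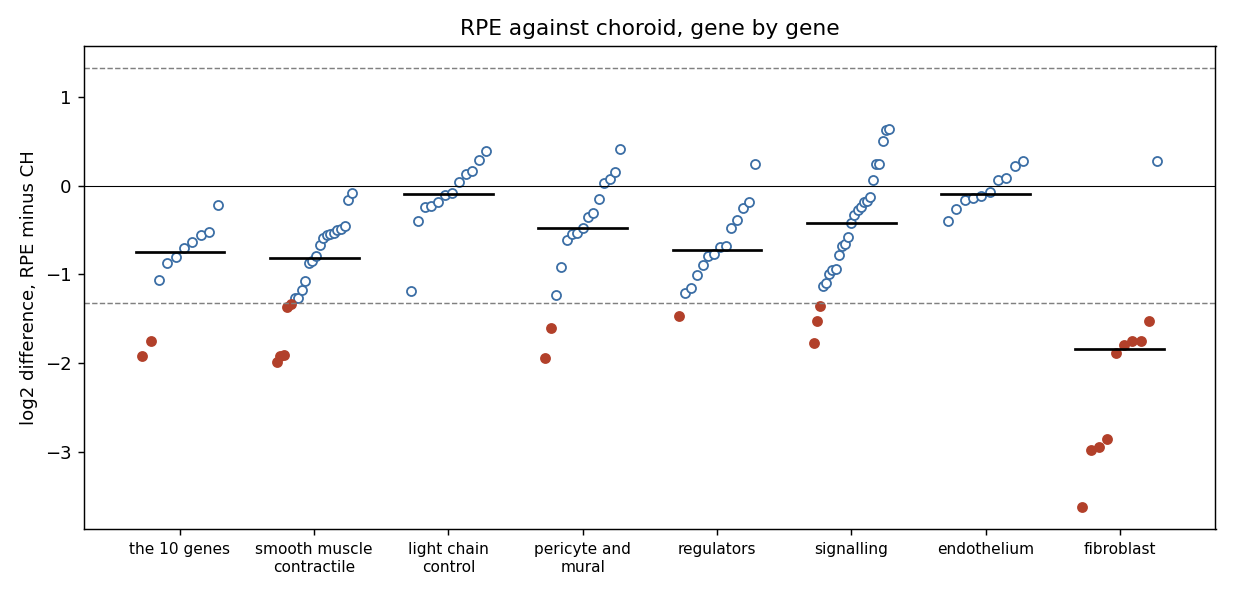
Log2 difference RPE minus CH (vertical axis) for the 10 genes and for 7 gene lists, one point per gene at its brightest probe. Red points passed FC 2.5 and adjusted p-value 0.01, the black bar is the median of the list and dashed lines mark FC 2.5. The 10 genes (median −0.75) lie between the endothelium list (−0.10), where no gene was called, and the fibroblast list (−1.84), where 9 of 10 were.

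Marker genes of the other cells of the vascular layer were read in the same samples. Of 10 endothelial genes, 0 were called between CH and RPE by limma, 0 also at an unadjusted p-value below 0.05 (median RPE minus CH −0.10), and their mean log2 ratio overlapped, between 1.27 and 1.83 in CH and between 1.44 and 1.62 in RPE. In PR it was between −2.13 and −1.95, and 9 of 10 were called higher in both other tissues. With median centring the endothelial median RPE minus CH was −0.38 and all 10 were lower in RPE, while the median over all probes was 0.04. Of 10 fibroblast genes, 9 were called higher in CH than RPE (median −1.84), with mean log2 ratios between 0.64 and 0.99 in CH and between −1.37 and −1.12 in RPE. Acta2 and Pdgfrb are also made by fibroblasts, and the part of fibroblasts in their values was not tested. Of 6 melanocyte genes, 2 were called higher in CH than RPE (median −0.98), a count that was 3 without CH replicate 3.

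**Figure D5:**
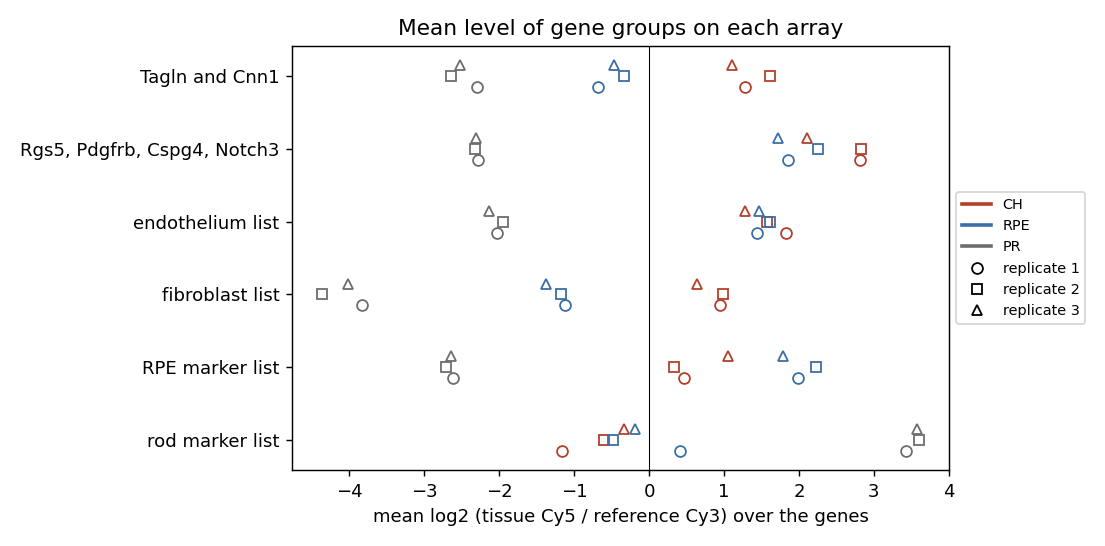
Mean log2 ratio over a group of genes (horizontal axis) on each array, for 2 contractile genes, the 4 pericyte genes and 4 marker lists. Colours mark the tissue and symbols the replicate. CH and RPE overlap for endothelium genes. For pericyte genes they overlap only between CH replicate 3 and RPE replicate 2, which are on different slides. They are apart for fibroblasts and for Tagln and Cnn1, a pair picked for that difference.

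Over the 9 arrays, the genes whose log2 ratio followed the mean of Acta2, Tagln, Myh11 and Cnn1 most closely were A130022J15Rik (Pearson r = 0.998), Plec1 (0.998), Oas1a (0.998), Pla2g4a (0.997) and Tpm2 (0.997). They were ranked among 24131 probes well above background on all 3 CH arrays. The points are 3 tissues of 3 arrays that share 1 reference, so the correlation follows mainly the differences between tissues and is given as a description. Tpm2, which encodes beta-tropomyosin, had a log2 difference RPE minus CH of −1.27 and RPE minus PR of 2.17. Of the 10 genes, Des followed the same mean with r = 0.975, Pdgfrb with 0.966, Notch3 with 0.956, Rgs5 with 0.953, Cspg4 with 0.934 and Mylk with 0.373. Many other probes followed it more closely: among the 24131 the ranks were 1215 for Des, 1746 for Pdgfrb and 2185 for Notch3. Rgs5 ranked 2314, Cspg4 3070 and Mylk 9993.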

How the data were processed

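RNA of 9 laser-dissected samples (3 each of CH, RPE and PR) was measured on dual-colour Agilent arrays. The authors deposited the output of Agilent Feature Extraction 9.5.3.1, in which mean signals and local backgrounds are intensity values as scanned. The same files, as the authors deposited them, hold processed intensities corrected by that software and a red over green ratio on the log10 scale. A table of log2 values was deposited by the authors for the whole series, and its normalization steps are not given in the sources used here. Its columns correlated at 0.998 with the log2 Cy5 values obtained here after normexp, loess and Aquantile normalization. They had medians between 9.38 and 9.55 and are taken as normalized Cy5 values.

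Intensities were corrected with normexp (offset 50) and loess within arrays in limma 3.58.1 (R 4.3.3). Outlier spots were left out, spots of a probe averaged, a mean per tissue fitted to 9 arrays and p-values adjusted by B-H over 39429 probes. Figures used matplotlib. The fit was tested on simulated data. Alternatives covered background, normalization, blocks, probes, thresholds and left-out arrays. The number of arrays limits the precision.

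The 10 genes and the lists were chosen with earlier results of these data known. The rule for naming list genes took at most 4 called per list and comparison, those with the largest differences, of which some are given here. Myl9 between CH and RPE and other list genes outside the rule were named after their values were seen. Probe positions are mm9. One gene of the rod marker list is not reported here. Promoter sequences were not used for Tagln, Myh11 and Pdgfrb.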

Additional observations from a re-analysis of the deposited data

How the results depend on the processing

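The counts of called genes were 2, 8 and 9 for CH over RPE, RPE over PR and CH over PR. They were 2 to 3, 8 to 8 and 8 to 9 over the alternatives to the processing, and 2, 8 and 9 with each array left out. With the replicate number as a block they were 2, 8 and 9. The sources do not say that equal numbers mark a shared eye or mouse. Same-number correlations of deviations were between −0.08 and 0.29 (0.16 to 0.29 among the number 2 arrays, which share a slide). The numbers were therefore not taken as pairs. The block changed no call of the 10 genes. One count moved by more than 1.5 times: 6 genes were higher in CH than RPE at an adjusted p-value below 0.05 with no fold change threshold (and 9 higher in RPE than PR, by the addition of Myh11).

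Of the single calls, Myh11 in CH over PR was lost with the slide as a block (PR replicates 1 and 3 assumed to share 1), with the series table and with Cy5 alone, and its log2 difference ranged from 1.51 to 2.30 over all alternatives. Pdgfrb in CH over RPE was gained with median centring. No difference of the 10 genes changed sign. The causes were not tested. Signal over background limits Des in PR, for which there is a lower bound.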
